A study of Homo sapiens with 5 samples.

Results

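The mevalonate arm of cholesterol synthesis was followed through 9 of its genes, ACAT2, HMGCS1, MVK, PMVK, MVD, IDI1, FDPS, GGPS1 and FDFT1, in RNA sequencing of HAP1 cells with and without METAP1. The members were taken by gene name from a table of 10626 genes, and all 9 were present and passed the filter on low counts. They run from acetyl-CoA to squalene and do not cover every step of that route. HAP1 is a near-haploid, adherent human line derived from a chronic myeloid leukaemia line. METAP1 encodes methionine aminopeptidase 1, which removes the first methionine of newly made proteins. There were 3 libraries of parental wild type cells and 2 of a METAP1 knockout, all grown in the same penicillin- and streptomycin-containing medium with 10% foetal bovine serum. The knockout was 1 CRISPR/Cas9-edited line with a frameshifting insertion of 179 bp in exon 4 of METAP1, so genotype and clone cannot be told apart. Replicates are labelled biological, but how their cultures were separated is not described, and p-values cover the spread between these 5 libraries only. The question addressed is which transcripts differ in level between the knockout and its parental line.

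As background, cells build cholesterol from acetyl-CoA. Acetyl-CoA units are joined into HMG-CoA, this is reduced to mevalonate, and mevalonate is phosphorylated and decarboxylated to isopentenyl diphosphate, the building block of all isoprenoids. FDPS joins these blocks into farnesyl diphosphate, where the route divides: FDFT1 commits farnesyl diphosphate to squalene and sterols, whereas GGPS1 extends it to geranylgeranyl diphosphate, a lipid anchor for small GTPases. Many genes of the route are activated by SREBP-2, a transcription factor held in the endoplasmic reticulum when membrane sterol is high. SREBP-2 is known to bind promoters together with NF-Y, which recognises CCAAT boxes, and Sp1, which recognises GC boxes.

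Promoter sequences are shown here for 5 members because the members differ in how many of these boxes they hold. The windows are from RefSeq (GRCh38.p14) and run from 250 bases before to 50 bases after a start site, printed 5′ to 3′ in the direction of the gene. Capitals mark CCAAT on either strand, which reads ATTGG on the other strand. Where RefSeq gave several starts, the one nearest the gene's annotated 5′ end is shown. HMGCS1 and MVK are shown as strongly lower members, FDPS as the most abundant, PMVK as a lower member with no CCAAT, and GGPS1 as the member with no detectable change.
HMGCS1 promoter, chr5:43313363-43313662, reverse strand: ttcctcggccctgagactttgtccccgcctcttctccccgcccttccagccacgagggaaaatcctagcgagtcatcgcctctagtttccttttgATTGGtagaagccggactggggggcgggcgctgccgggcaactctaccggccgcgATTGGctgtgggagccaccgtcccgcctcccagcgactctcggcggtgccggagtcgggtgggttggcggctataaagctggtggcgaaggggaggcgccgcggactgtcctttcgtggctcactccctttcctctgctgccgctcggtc
MVK promoter, chr12:109573544-109573843, forward strand: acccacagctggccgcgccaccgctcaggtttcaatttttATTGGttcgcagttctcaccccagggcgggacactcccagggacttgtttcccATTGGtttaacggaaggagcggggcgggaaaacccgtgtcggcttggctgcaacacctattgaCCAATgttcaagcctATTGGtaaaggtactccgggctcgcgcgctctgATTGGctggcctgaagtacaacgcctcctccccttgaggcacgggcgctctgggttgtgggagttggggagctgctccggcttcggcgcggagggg
FDPS promoter, chr1:155308616-155308915, forward strand: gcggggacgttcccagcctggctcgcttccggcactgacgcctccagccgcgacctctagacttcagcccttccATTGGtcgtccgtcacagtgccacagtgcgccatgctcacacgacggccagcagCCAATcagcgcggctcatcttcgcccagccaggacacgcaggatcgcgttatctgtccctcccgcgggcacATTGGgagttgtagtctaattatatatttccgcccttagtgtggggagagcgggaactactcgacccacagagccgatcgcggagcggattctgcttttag
PMVK promoter, chr1:154936670-154936969, reverse strand: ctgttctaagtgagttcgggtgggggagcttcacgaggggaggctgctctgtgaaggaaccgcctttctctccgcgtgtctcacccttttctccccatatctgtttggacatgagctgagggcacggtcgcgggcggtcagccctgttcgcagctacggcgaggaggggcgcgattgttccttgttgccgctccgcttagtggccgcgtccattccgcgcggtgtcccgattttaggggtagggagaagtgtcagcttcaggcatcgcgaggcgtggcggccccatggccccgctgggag
GGPS1 promoter, chr1:235326966-235327265, forward strand: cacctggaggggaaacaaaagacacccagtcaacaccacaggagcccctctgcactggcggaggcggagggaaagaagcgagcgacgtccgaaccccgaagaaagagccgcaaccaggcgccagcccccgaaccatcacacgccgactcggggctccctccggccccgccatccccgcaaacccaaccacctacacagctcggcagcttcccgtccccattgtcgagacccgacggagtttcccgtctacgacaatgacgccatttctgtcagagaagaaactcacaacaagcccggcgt

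RefSeq windows were matched for 7 of the 9 members, and no sequence is shown for ACAT2 or FDFT1. Of these 7 nearest windows, 5 held CCAAT: MVK had 5 matches, FDPS and MVD had 3 each, and HMGCS1 and IDI1 had 2 each. PMVK and GGPS1 had 0. The MVK window lies downstream of the annotated MVK start, within the 620 bases where MVK overlaps MMAB on the opposite strand. Counting alternative starts, 7 of the 12 member windows held CCAAT. Over all 35116 RefSeq windows, 34.6% held CCAAT on either strand and 10.8% held at least 2 matches. In HMGCS1 the matches began 155 and 100 bases before the start site. The second of the 3 GGPS1 windows, whose start lies further downstream, held 1 match. The Sp1-type GC box GGGCGG was in 6 of the 7 nearest windows, all but that of GGPS1, against 45% of all windows. Counting alternative starts it was in 11 of the 12 windows, with 2 matches in each of the other GGPS1 windows. A sterol regulatory element written as TCACNCCAC was in 0 of the 12 member windows, against 1.13% of all windows. With 1 mismatch allowed it was in 2 of the 7 nearest windows, those of FDPS and MVK, against 24.5% of all windows. CACGTG, an E-box, was in 0 of the 12 windows, against 7.26% of all. These are letter matches on both strands, matches of different motifs may overlap, and they do not show that a factor was bound. The number of windows is small and no test was made.

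**Figure D1:**
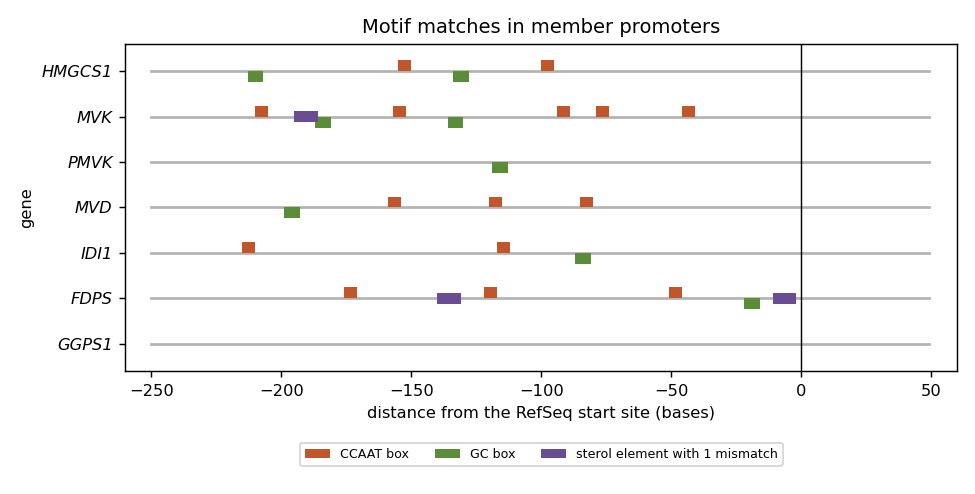
Positions of motif matches in the nearest RefSeq promoter window of 7 members; the horizontal axis is the distance from the start site in bases, each grey line is a window, and coloured blocks are CCAAT boxes, GC boxes and sterol elements with 1 mismatch. MVK carries 5 CCAAT boxes, whereas PMVK and GGPS1 carry 0.

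Depth per library ran from 12570051 to 16519292 reads counted in genes, with wild type replicate 2 the deepest. Knockout libraries are called 2 and 3 after the numbers of their columns. METAP1 itself was lower in both knockout libraries, at 611 and 748 normalized counts against 1868 to 1944 in wild type. METAP1D, which the labels name beside the edit, was at 310 and 273 against 273 to 295. A normalized count is a read count divided by the library's relative effective size. Of 15 haematopoietic markers, the lineage of the parent leukaemia line, only KIT and GATA2 were in the table, and none of 8 hepatic markers were. The table held genes above a minimum level, so the others were not analysed here. The summed level of 5 epithelial markers in the table was 876 to 994 normalized counts in wild type and 1838 and 2019 in the knockout, and that of 7 mesenchymal markers was 10326 to 10880 and 13097 and 13277. Most of the epithelial rise was in 1 gene, the keratin KRT8, at 116 to 164 in wild type and 921 and 967 in the knockout, whereas EPCAM was at 39.8 to 50.6 and 45.6 and 57.1, and ESRP1 at 119 to 131 and 75.7 and 98.4. Of the epithelial markers 2 of 5 were called higher and of the mesenchymal markers 3 of 7, with none lower. KIT was also called higher, and GATA2 was not called. Over all tested genes 14.9% were called higher, and these lists are too small to set apart from that share. The part of these markers in the results below was not tested.

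Of the 9 members, 8 fell in the knockout and none rose, with a median log2 fold change of -0.92 against 0.01 over all 10620 tested genes. Calls were made at an adjusted p under 0.05 (edgeR quasi-likelihood F-test, Benjamini-Hochberg over all tested genes). By this rule 14.8% of tested genes were lower, 14.9% higher and 29.7% called in either direction. Both knockout libraries lay below all wild type libraries in the same 8 members, against 29.2% of tested genes. HMGCS1, ACAT2, MVK and FDPS were lower by at least 2-fold, which 2.11% of tested genes were. FDPS only just met this cut, at -1.01, and fell short of it in some settings. It was at -0.91 with the length trend removed, -0.94 without wild type replicate 2 and -0.98 in the authors' deposited values. In bulk RNA, less transcript in every cell and fewer cells with the transcript cannot be told apart.

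**Figure D2:**
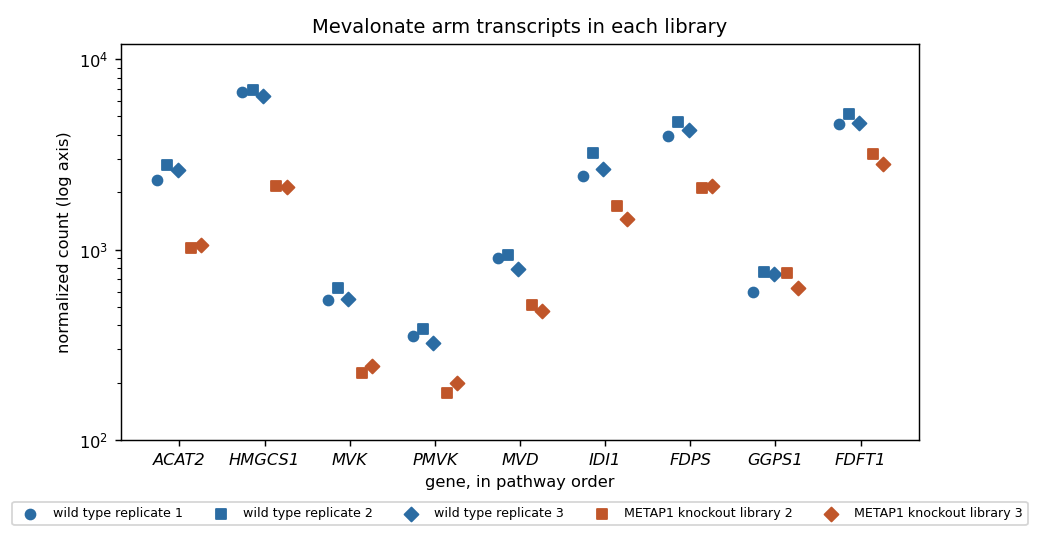
Normalized counts (log axis) of the 9 members in pathway order, 1 point per library, with wild type in blue and METAP1 knockout in orange. The 2 knockout points lie below all wild type points for every member except GGPS1, where 755 and 629 fall within the wild type range of 597 to 765.

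HMGCS1 fell most, and ACAT2 and MVK fell by similar amounts, in an order that changed between settings. ACAT2, the cytosolic thiolase that joins acetyl-CoA units to acetoacetyl-CoA, had 2309, 2770 and 2611 normalized counts in wild type and 1023 and 1054 in the knockout. The groups were far apart, with the knockout at 40.5% of the wild type level. Its log2 fold change was -1.30 (SE 0.110, adjusted p = 0.000144, edgeR). HMGCS1, the cytosolic synthase that makes HMG-CoA, had 6723, 6922 and 6421 normalized counts in wild type and 2156 and 2138 in the knockout. It was the member with the lowest knockout level relative to wild type, at 32.1%, and its libraries agreed closely within each group. The log2 fold change was -1.64 (SE 0.092, adjusted p = 2.12e-05, edgeR), with a 95% interval of -1.85 to -1.43.

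ACAT2 (ENSG00000120437) lies on chromosome 6 (159760328 to 159779055, forward strand) and HMGCS1 (ENSG00000112972) on chromosome 5 (43289395 to 43313512, reverse strand), in GENCODE release 29 on GRCh38. The end of ACAT2 overlaps that of TCP1, a chaperonin subunit gene on the opposite strand, by 558 bases. TCP1 had 9714, 11375 and 11168 normalized counts in wild type and 9717 and 8967 in the knockout, and it was not called (log2 fold change -0.20, adjusted p = 0.165, edgeR). Without wild type replicate 1 TCP1 was called lower, at -0.29 with adjusted p = 0.0155 in edgeR, and likewise with a replicate block by column number, at -0.27 with 0.0274. SOD2, on the opposite strand, overlaps the start of ACAT2 by 2202 bases in the annotation and was not analysed here under that identifier. Whether counting used the strand is not stated by the labels or headers, so reads in such overlaps may have been shared or dropped.

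The mevalonate kinases and the decarboxylase were less abundant and also fell. MVK, which phosphorylates mevalonate, had 545, 626 and 548 normalized counts in wild type and 225 and 245 in the knockout, where it stood at 41% of wild type. Its log2 fold change was -1.28 (SE 0.133, adjusted p = 0.000388, edgeR). PMVK, the next kinase, had 353, 385 and 325 in wild type and 176 and 199 in the knockout, the fewest of the 9 members. The log2 fold change of PMVK was -0.92 (SE 0.144, adjusted p = 0.00257, edgeR). MVD, the decarboxylase that yields isopentenyl diphosphate, had 900, 938 and 787 in wild type and 511 and 476 in the knockout. For MVD the log2 fold change was -0.83 (SE 0.122, adjusted p = 0.00199, edgeR).

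MVK (ENSG00000110921, chromosome 12, 109573255 to 109598117, forward strand) shares its start region with MMAB, which encodes an enzyme of vitamin B12 metabolism and is read from the opposite strand. Their annotated starts are 619 bases apart and the 2 genes overlap by 620 bases. MMAB fell as well, from 713, 739 and 747 normalized counts to 283 and 327. Its log2 fold change was -1.27 (SE 0.122, adjusted p = 0.000273, edgeR), close to that of MVK. Reads in the overlap may belong to either gene. PMVK (ENSG00000163344) lies on chromosome 1 (154924734 to 154936991, reverse strand) and MVD (ENSG00000167508) on chromosome 16 (88651935 to 88663161, reverse strand), and no tested gene overlaps them.

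Of the later members, FDPS was lower by about 2-fold and IDI1 and FDFT1 by less. IDI1, the isomerase that converts isopentenyl diphosphate to dimethylallyl diphosphate, had 2444, 3214 and 2649 normalized counts in wild type and 1697 and 1448 in the knockout. Wild type replicate 2 stood above the other two, and the spread of IDI1 was the widest of the members that fell in wild type, at 399 (SD, n = 3). Its log2 fold change was -0.82 (SE 0.139, adjusted p = 0.00363, edgeR). Without knockout library 3 the IDI1 call was lost, at -0.71 with adjusted p = 0.0552 in edgeR. WDR37, whose start is 368 bases from that of IDI1 on the opposite strand, moved the other way, from 393, 292 and 313 normalized counts to 489 and 514 (log2 fold change 0.59, adjusted p = 0.0194, edgeR). The WDR37 call was lost without wild type replicate 3 or either knockout library, with adjusted p from 0.0765 to 0.121 in edgeR.

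FDPS, which makes farnesyl diphosphate, had 3966, 4700 and 4235 normalized counts in wild type and 2117 and 2160 in the knockout. The knockout stood at 49.7% of wild type, with a log2 fold change of -1.01 (SE 0.104, adjusted p = 0.000388, edgeR). FDPS (ENSG00000160752) lies on chromosome 1 (155308748 to 155320666, forward strand) and IDI1 (ENSG00000067064) on chromosome 10 (1039152 to 1049170, reverse strand). FDFT1 (ENSG00000079459), the squalene synthase gene on chromosome 8, had 4559, 5170 and 4601 normalized counts in wild type and 3192 and 2817 in the knockout. FDFT1 had the smallest change of the 8 members that fell, with a log2 fold change of -0.67 (SE 0.105, adjusted p = 0.00264, edgeR). Its 95% interval, -0.91 to -0.43, did not reach that of HMGCS1.

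GGPS1, the enzyme gene of the geranylgeranyl branch, was the exception. It had 597, 765 and 741 normalized counts in wild type and 755 and 629 in the knockout, so the groups overlapped. The log2 fold change was -0.02 (SE 0.144, adjusted p = 0.928, edgeR), with a 95% interval of -0.35 to 0.31. That interval leaves room for modest changes in either direction but lies above the estimates of all 8 other members. GGPS1 (ENSG00000152904, chromosome 1, 235327350 to 235344532, forward strand) starts beside ARID4B, a chromatin protein gene on the opposite strand that it overlaps by 870 bases. ARID4B had 1536, 1350 and 1412 normalized counts in wild type and 1654 and 1630 in the knockout and was not called (0.20, adjusted p = 0.149, edgeR). A TBCE gene of the annotation overlaps GGPS1 on the same strand, and reads there could be split between both. TBCE, named here after its values were seen and present in the table under another identifier, had 534 to 589 normalized counts in wild type and 632 and 647 in the knockout, and it was not called.

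**Figure D3:**
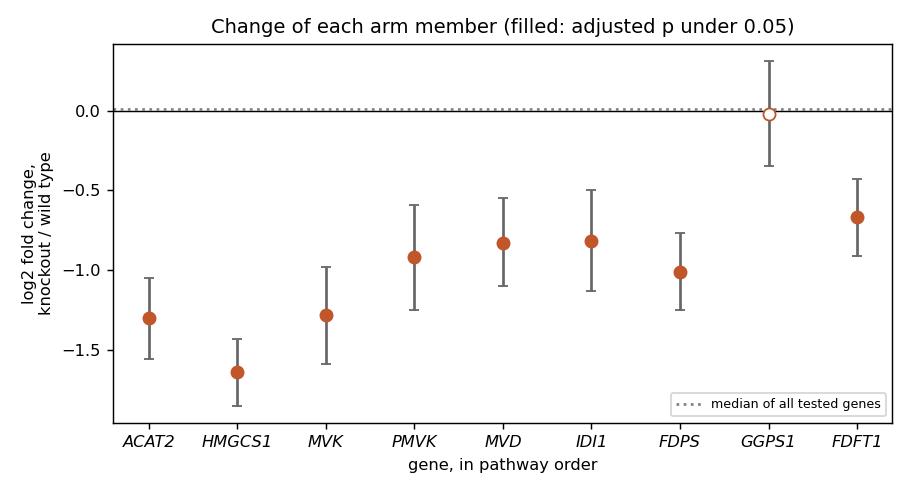
Log2 fold change of each member, knockout over wild type, in pathway order; bars are 95% intervals, filled points have an adjusted p under 0.05, and the dotted line is the median of all tested genes (0.01). Estimates run from -1.64 for HMGCS1 to -0.02 for GGPS1.

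Members also shared variation among the wild type libraries. Replicate 2 was the highest of the 3 wild type libraries in all 9 members, GGPS1 included, as it was in 37.0% of tested genes. Between the knockout libraries there was no such order, with library 2 above library 3 in 5 of 9 members. The authors' deposited table gave the same 8 members at an adjusted p under 0.05, with log2 fold changes from -1.61 for HMGCS1 to -0.65 for FDFT1. In the authors' deposited table GGPS1 had -0.02 with an adjusted p of 0.931.

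Per length of transcript, FDPS was the most abundant member and MVK the least in both genotypes. In wild type FDPS had 2204 ± 190 normalized counts per kilobase and MVK had 102 ± 8.13 (SD, n = 3). HMGCS1 was next at 1453 ± 54.8, followed by FDFT1 at 1095 ± 78.3, IDI1 at 826 ± 119 and ACAT2 at 595 ± 54.3 (SD, n = 3). Next came PMVK at 277 ± 23.6, GGPS1 at 264 ± 34.3 and MVD at 231 ± 20.7 (SD, n = 3). The ranges of PMVK and GGPS1 overlapped, as did those of GGPS1 and MVD, and all other neighbours in this order were apart. On the authors' RPKM scale wild type FDPS was at 142 and MVK at 6.57. The lengths join all exons of a gene, so a member used as a short isoform is understated.

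The order shifted in the knockout. HMGCS1 moved from rank 2 to rank 4 at 466 ± 2.68 normalized counts per kilobase (SD, n = 2), where its range overlapped that of IDI1. GGPS1 moved from rank 7 to rank 5 at 260 ± 33.2 (SD, n = 2), level with ACAT2. Summed over the 9 members, the level was 6637, 7645 and 6854 normalized counts per kilobase in wild type and 3624 and 3455 in the knockout, 50.2% of the wild type mean. Within this sum HMGCS1 made up 20.7% in wild type and 13.2% in the knockout, and GGPS1 made up 3.74% and 7.34%. FDPS kept about the same share, at 31.3% and 31%.

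Ratios of reads between members within a library, which do not depend on scaling between libraries, were compared for 8 pairs of steps. The groups did not overlap for 5 of the 8. The pairs share members, so they are not separate observations, and the share among ratios of other genes was not tested. The largest shift was at the branch point. The log2 ratio of FDPS to GGPS1 reads was 2.73, 2.62 and 2.51 in wild type and 1.49 and 1.78 in the knockout, a difference of -0.99. FDPS to FDFT1, the sterol side of the same branch, moved by -0.34, from -0.20, -0.14 and -0.12 to -0.59 and -0.38. HMGCS1 to MVK and MVK to PMVK each moved by -0.36 and ACAT2 to HMGCS1 by 0.34, also without overlap. PMVK to MVD (-0.10), MVD to IDI1 (-0.01) and IDI1 to FDPS (0.19) overlapped between groups. An exact 2-sided permutation test, which doubles the p of the smaller side, gave p = 0.2 for each of the 5. That is the smallest value this test allows with 3 against 2 libraries, and it became 0.32 after adjustment over the 8 pairs. These ratios therefore cannot pass a threshold of 0.05 in this design.

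**Figure D4:**
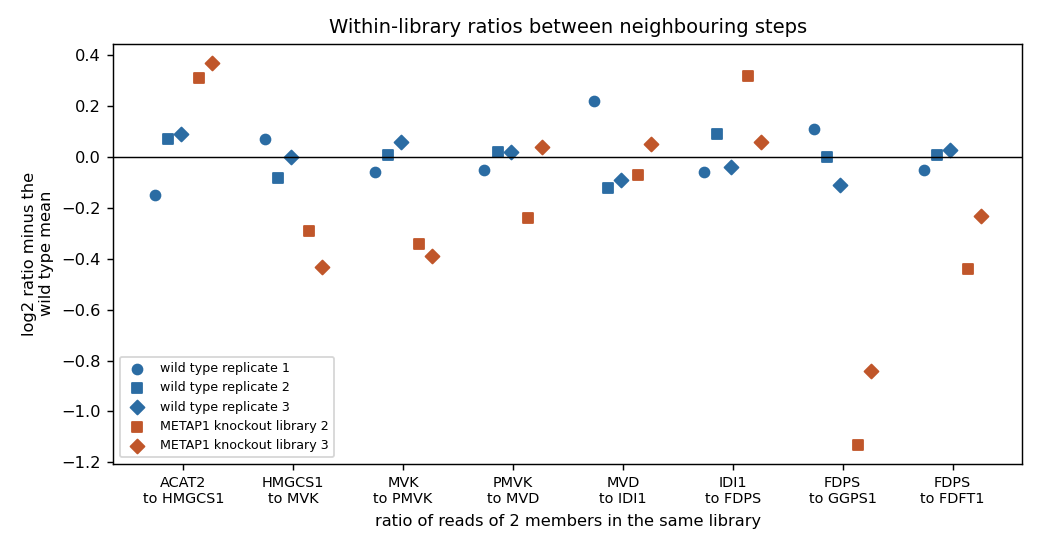
Log2 ratio of the reads of 2 members in the same library, minus the wild type mean of that ratio, for 8 pairs; each point is a library, blue for wild type and orange for METAP1 knockout. FDPS to GGPS1 lies furthest from the wild type mean, by -0.99 on average.

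Beyond the arm, 6 lists of pathway genes with 61 tested members held 19 that fell and 5 that rose. Over all tested genes the shares were 14.8% lower and 14.9% higher, and outside the sterol steps each list held at most 3 calls in a direction, too few to set a list apart from these shares. The sterol steps after squalene moved with the arm, with 10 of 11 tested genes lower, 1 higher and a median log2 fold change of -0.80. The number lower was 9 without wild type replicate 2 and 8 without wild type replicate 3, with 0 higher in both settings. It was also smaller than in the main test without either knockout library, which leaves 1 library in that group. HSD17B7, a ketoreductase of sterol synthesis, had 336, 325 and 335 normalized counts in wild type and 129 and 134 in the knockout (log2 fold change -1.33, adjusted p = 0.000332, edgeR). NSDHL, which acts on the same carbon of the sterol, fell by 1.10 on the log2 scale, and EBP, a sterol isomerase, by 0.90 (adjusted p = 0.000472 and 0.00113, edgeR). SC5D, a sterol desaturase named after its values were seen, rose from 955, 958 and 1047 to 1186 and 1321 (0.35, adjusted p = 0.036, edgeR). Leaving out any library except wild type replicate 1 ended the SC5D call, with adjusted p from 0.0657 to 0.222 in edgeR.

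Of the machinery that controls SREBP, 1 of 14 tested genes was called lower and 1 higher, with a median of 0.08. With single libraries left out, 1 to 3 were lower (3 without wild type replicate 1, 2 without wild type replicate 3) and 0 to 2 higher (2 without wild type replicate 1, 0 without any other library). With the length trend removed 3 were lower, with DESeq2 2, and with the replicate block 2 were lower and 3 higher. INSIG1, which retains SREBP in the endoplasmic reticulum and is itself a known SREBP target, fell from 1492, 1858 and 1542 normalized counts to 757 and 544. Its log2 fold change was -1.33 (SE 0.167, adjusted p = 0.00117, edgeR). INSIG2, its relative, rose from 286, 204 and 275 to 346 and 381 (0.52, adjusted p = 0.0486, edgeR), and lost this call on leaving out any library except wild type replicate 1 (adjusted p from 0.0849 to 0.232, edgeR). SREBF2, the gene of SREBP-2, named after its values were seen, was not called: it had 3222, 2276 and 2361 normalized counts in wild type and 3502 and 3428 in the knockout (0.40, adjusted p = 0.0779, edgeR). Without wild type replicate 1 SREBF2 was called, at 0.57 with adjusted p = 0.00122 in edgeR, and likewise with the replicate block, at 0.58 with 0.00373. SREBF1, also named after its values were seen, had 1025, 998 and 733 in wild type and 702 and 673 in the knockout (-0.42, adjusted p = 0.0744, edgeR). SREBF1 was called without wild type replicate 3, at -0.56 with adjusted p = 0.0283 in edgeR, and with the length trend removed, at -0.53 with 0.0219.

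Genes that supply acetyl-CoA had 3 of 9 members lower and none higher, with a median of -0.18, and 1 lower without wild type replicate 3 or either knockout library. ACLY, which makes cytosolic acetyl-CoA from citrate, fell from 7718, 8157 and 8143 normalized counts to 5328 and 5309 (-0.59, adjusted p = 0.00197, edgeR). ACSS2, which makes it from acetate, fell by 0.52 on the log2 scale (adjusted p = 0.0125, edgeR), and DLAT, a pyruvate dehydrogenase subunit, by 0.33 (adjusted p = 0.0348, edgeR). ACSS2 and DLAT lost their calls when wild type replicate 3 or either knockout library was left out, with adjusted p from 0.0521 to 0.201 in edgeR, and DLAT also without wild type replicate 2 (0.0528).

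Mitochondrial thiolase and ketone body genes had 1 of 6 tested members lower and none higher, with a median of -0.22. Without wild type replicate 1 the count was 4 of 6, and with the replicate block 2 of 6. BDH1, a ketone body dehydrogenase, fell from 403, 356 and 361 normalized counts to 167 and 193 (-1.05, adjusted p = 0.00137, edgeR). ACAT1, the mitochondrial counterpart of ACAT2 and named after its values were seen, had 1919, 2824 and 2561 in wild type and 2015 and 2161 in the knockout. ACAT1 was not called (-0.22, adjusted p = 0.316, edgeR) but was without wild type replicate 1, at -0.38 with adjusted p = 0.012 in edgeR. With the replicate block ACAT1 was called too, at -0.37 with adjusted p = 0.0283 in edgeR.

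Of 11 protein prenylation genes, which use the isoprenoid products, 2 fell and 3 rose (median -0.15). Leaving out knockout library 2 left 0 that rose, leaving out library 3 left 1, removing the length trend left 1, and the number that fell was 1 without wild type replicate 3 or either knockout library. ZMPSTE24, a protease that trims prenylated lamin A, fell from 1914, 2107 and 2213 normalized counts to 1053 and 1296 (-0.82, adjusted p = 0.00199, edgeR). FNTA, the shared subunit of the farnesyl and geranylgeranyl transferases, rose from 860, 942 and 908 to 1248 and 1274 (0.48, adjusted p = 0.00787, edgeR), and PTAR1, a prenyltransferase subunit, rose by 0.50 on the log2 scale (adjusted p = 0.0108, edgeR). FNTA and PTAR1 were not called without knockout library 2 (adjusted p = 0.0575 and 0.128, edgeR) or with each library's trend with gene length removed (adjusted p = 0.126 and 0.267, edgeR), and FNTA also without knockout library 3 (0.0639). Of 10 genes of dolichol, ubiquinone and isoprenoid tRNA synthesis 2 fell and none rose (median -0.18). COQ2, which attaches the isoprenoid tail of ubiquinone, fell from 501, 584 and 606 normalized counts to 250 and 254 (-1.16, adjusted p = 0.000705, edgeR). SRD5A3, a polyprenol reductase of dolichol synthesis, fell from 275, 268 and 258 to 111 and 132 (-1.13, adjusted p = 0.00122, edgeR).

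**Figure D5:**
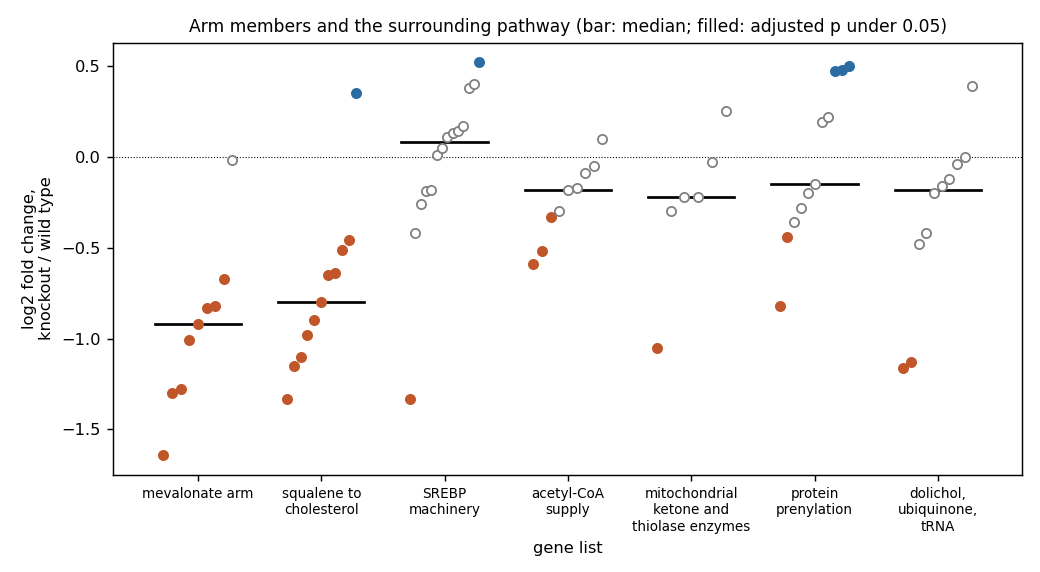
Log2 fold change, knockout over wild type, of each tested gene of the mevalonate arm and 6 surrounding lists; each point is a gene, filled orange if called lower, filled blue if called higher and open if not called, and bars are medians. Medians are -0.92 for the arm and -0.80 for squalene to cholesterol, and lie between -0.22 and 0.08 for the other lists.

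The 5 other genes with levels most like the members' median profile were found over the 5 libraries. Likeness was the root mean square distance of log2 CPM, each centred on its own mean. SCO2, a copper chaperone of cytochrome oxidase, was nearest at 0.049, followed by HIRIP3, a histone chaperone gene, at 0.050. HIST1H2AC, a histone gene with near-identical copies, and RPP25, a ribonuclease P subunit, were both at 0.059, and PRIMPOL, a primase and polymerase, was at 0.060. Among the members FDPS was nearest to their own median, at 0.060, and GGPS1 farthest, at 0.503. SCO2 had 266, 327 and 271 normalized counts in wild type and 145 and 143 in the knockout. Likeness was measured over these same libraries, so its high replicate 2 follows from how it was picked.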

How the data were processed

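Per the labels' protocols, ribosomal RNA was removed from total RNA with Ribo-Zero, and stranded TruSeq libraries gave single-end reads of 75 bp. Named in the submitters' processing notes are HTSeq, STAR 2.4.0i, DESeq2, GRCh37 and hg19, with no role. The deposited table held raw read counts and RPKM values per library, a gene length, and the authors' log2 fold changes, standard errors and adjusted p-values, per the file headers. Wild type columns were matched by number. Knockout columns, numbered 2 and 3, could not be tied to single titles, and their 2 RPKM columns were not used.

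After filterByExpr had removed 6 genes, counts were scaled by TMM and tested with edgeR 4.0.16 (R 4.3.3) in a robust quasi-likelihood F-test with genotype alone, 2-sided, on 3 residual degrees of freedom. P-values were adjusted by Benjamini-Hochberg over 10620 genes. Ratios used scipy 1.17.1. No pair of replicates agreed within sampling noise (chi-square per degree of freedom 10.1 to 34.9). Steps were tested on simulated data with 200 changed genes. Of simulated log2 changes of 0.5, 34.3% were recovered, against 94.0% of those of 1, so a gene not called may still differ modestly. Far more genes, 3150, were called in the data than were changed in the simulation, so these shares may differ there. Positions came from GENCODE release 29 (GRCh38) by Ensembl identifier and promoters from RefSeq by symbol, none converted between builds.

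The members and lists were chosen with earlier results of these data known. Named were all members, up to 3 called genes of each list with the smallest adjusted p, genes that overlap a member or start within 2000 bp of its start, and the 5 nearest profiles. A few genes selected this way are not reported here. Other settings were median-of-ratios size factors, no TMM, all genes unfiltered, a minimum mean of 50 counts, removal of the length trend (lowess, span 0.3), DESeq2 1.42.0, limma-voom (limma 3.58.1), a block by column number, and each library left out in turn. Protein starts were not analysed here.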

Additional observations from a re-analysis of the deposited data

How the results depend on the processing

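As in the main test, 8 members were called lower under median-of-ratios size factors, library sizes without TMM, both other filters, removal of the length trend, DESeq2 and limma-voom. With a library left out, 7 or 8 were lower, IDI1 being lost without knockout library 3, and no member was called higher in any setting. Of 117 alternative values for single members, 112 kept their direction and call. GGPS1 changed sign without being called: it was 0.04 with the length trend removed and ranged from -0.16 to 0.11 with a library left out. ARID4B turned to -0.06 with the length trend removed, and METAP1D, 0.05 and not called, ranged from -0.05 to 0.14 with a library left out. For all genes, leaving out a library gave 564 to 2278 lower and 615 to 2313 higher calls, against 1570 and 1580. Of the 61 other pathway genes, 0 to 6 were called higher with a library left out and 3 with the length trend removed, against 5, and 14 to 27 lower, against 19. Among the 8 ratios, 5 to 7 were apart with a library left out. Sterol element matches rose from 0 to 4 of 12 windows when 1 mismatch was allowed, by construction.

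A replicate block by column number (2 and 3 shared by both groups) called 2024 genes lower, 2332 higher and the same number of members, 8, lower. The numbers were not taken as pairs, since the knockout columns could not be tied to numbered titles. Deviations of same-numbered libraries had correlations of 0.0316 and -0.00254 across genes. The deviations of the 2 knockout libraries mirror each other, so these are not separate checks. Depth is not limiting for the members, whose smallest read count was 158. With 2 knockout libraries the tests of single genes lean on a spread drawn toward a trend over all genes.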
